A study of Mus musculus with 34 samples.

Results

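The genomic intervals described here are the wide ones among the regions in which the study counted its ChIP-seq reads. Of the 248336 regions of the list shared by 3 of the deposited count tables, 1175 (0.473%) spanned 4 kb or more between the start and end in their names. They were chosen by width alone. Together they covered 6.18 Mb, or 3.31% of the listed bases. Their median width was 4777 bp (range 4001 to 15743 bp), against 545 bp for the other 247161 regions. Of the wide regions, 684 were narrower than 5 kb and 62 spanned 8 kb or more.

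The study asked whether a segment of mouse chromosome 13 is associated with differences in histone marks elsewhere in the genome. Embryonic stem cells of 4 genotypes were compared, namely C57BL/6J (B6), DBA/2J (D2) and a reciprocal pair of congenic strains. The congenic B6.D2-(rs30079041-rs51756099)/Bakr, called B6-13D2, carries D2 chromosome 13 sequence on B6. D2-13B6 carries the B6 segment on D2, and the sources name its distal marker in 2 ways, as rs13469455 or rs51756099. All cells were grown in DMEM with 15% serum, LIF, the MEK inhibitor PD0325901 and the GSK3 inhibitor CHIR99021, so no untreated or knockout group exists. H3K9me3 was precipitated with an Active Motif antibody, and H3K27ac with an abcam antibody in one experiment and a Cell Signaling Technology antibody in the other. In the experiment with separate lines, 3 lines of B6 and 3 of D2 were profiled for each mark. In the experiment with repeated libraries, 1 line of each genotype was profiled in technical replicates, and its B6 and D2 lines are also among the separate lines, 1 of the 3 in each strain (H3K9me3: 3 libraries of B6, 2 of D2, 2 of B6-13D2 and 3 of D2-13B6; H3K27ac: 3 of each). Tests on the repeated libraries therefore compare 4 individual lines. Their p-values measure only the spread between libraries of the same line, pooled over the 4 lines in 1 fit per mark. A difference between a congenic line and its parent strain and a difference between 2 individual lines cannot be told apart.

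Acetylation of histone H3 at lysine 27 marks active promoters and enhancers, and in stem cells long acetylated stretches lie around genes of the pluripotency network. Trimethylation of lysine 9 marks heterochromatin at satellites, transposable elements and imprinted loci. Much of it is laid down by SETDB1, which KRAB zinc finger proteins bring to their target sequences through the corepressor TRIM28. Many KRAB zinc finger genes lie in clusters that differ between mouse strains.

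The H3K27ac tables held 15444270 to 18272793 counts in each of 6 libraries of separate lines and 8735674 to 11543469 in each of 12 repeated libraries. The H3K9me3 tables held 1487862 to 2559262 counts in each of 6 libraries and 1538145 to 2185977 in each of 10. The wide regions took 9.99% to 10.9% of the H3K27ac counts of the repeated libraries, and 1.99% to 2.92% of the H3K9me3 counts over both experiments. The median wide region held 685 to 1807 H3K27ac counts per sample but only 9 to 33 H3K9me3 counts, so its acetylation was measured with far less counting error. Pairs of H3K27ac repeated libraries whose counts differed by less than sampling noise were added up, so that each genotype had n = 2 samples for this mark. D2-13B6 replicate 1 stood apart from replicates 2 and 3 for both marks (chi-square per degree of freedom 2.46 and 2.47 for H3K9me3 and 2.81 and 2.79 for H3K27ac, against 1.21 and 0.905 between the other two). Summed H3K27ac over the starts of 10 embryonic stem cell markers was 893 to 1151 CPM (counts scaled to library size, as edgeR computes it) by genotype, with a region at 10 of 10 genes. The regions at the Esrrb and Fgf4 starts were low in every genotype, with 0.178 to 0.495 and 1.06 to 1.49 CPM. For fibroblast feeder markers the summed H3K27ac was 12.8 in B6, 23.2 in B6-13D2, 34.2 in D2 and 26.0 in D2-13B6 (6 of 8 genes with a region, none at Col3a1 or Postn). For primitive endoderm it was 6.05 to 9.76 (2 of 6 genes, Gata6 and Foxa2) and for mesoderm and neural markers 13.0 to 21.3 (6 of 6). The part of these differences in the results was not tested. No input library was in the tables used here, so enrichment and uneven recovery of a region's chromatin cannot be told apart.

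Coordinates are GRCm38/mm10, which is the C57BL/6J assembly, and levels are CPM per kb of region. A short set of sequences shows what kinds of DNA these intervals held. The wide region chr7:3216076-3224434 overlaps an exon of Nlrp12 and held 9 miRNA genes of the miR-290 to miR-295 cluster, the main miRNAs of mouse embryonic stem cells. Of the 1175 regions, 24 held 35 annotated miRNA genes. The mature 3p strands found in RefSeq (GRCm38.p6) are printed with the seed, bases 2 to 8, in capitals. The seed AAGUGCU was shared by 3 of the 6.
mmu-miR-290a-3p: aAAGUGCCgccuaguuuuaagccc
mmu-miR-291a-3p: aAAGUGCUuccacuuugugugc
mmu-miR-291b-3p: aAAGUGCAuccauuuuguuugu
mmu-miR-293-3p: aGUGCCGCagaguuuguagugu
mmu-miR-294-3p: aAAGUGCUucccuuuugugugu
mmu-miR-295-3p: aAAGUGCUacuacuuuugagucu

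At several gene starts within wide regions, H3K9me3 differed between genotypes as described later, and 3 of them were picked to be shown. Their RefSeq promoters, from 250 bases before to 50 bases after the start, are printed with CpG dinucleotides in capitals (Gja1 at chr10:56377050-56377349, + strand, Dut at chr2:125247265-125247564, + strand, and Peg3 at chr7:6730370-6730669, - strand). The Dut promoter held 36 CpG, more than 94.0% of 27025 promoters of the same length. The Peg3 promoter held 13, more than 61.5% of them, and the Gja1 promoter 8, more than 51.0%.
Gja1 promoter: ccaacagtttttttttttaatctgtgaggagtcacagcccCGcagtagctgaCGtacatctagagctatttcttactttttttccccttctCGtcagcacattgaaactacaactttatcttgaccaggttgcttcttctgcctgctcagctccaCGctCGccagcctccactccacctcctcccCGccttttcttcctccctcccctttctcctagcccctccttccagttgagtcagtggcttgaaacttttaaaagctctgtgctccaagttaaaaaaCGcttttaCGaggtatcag
Dut promoter: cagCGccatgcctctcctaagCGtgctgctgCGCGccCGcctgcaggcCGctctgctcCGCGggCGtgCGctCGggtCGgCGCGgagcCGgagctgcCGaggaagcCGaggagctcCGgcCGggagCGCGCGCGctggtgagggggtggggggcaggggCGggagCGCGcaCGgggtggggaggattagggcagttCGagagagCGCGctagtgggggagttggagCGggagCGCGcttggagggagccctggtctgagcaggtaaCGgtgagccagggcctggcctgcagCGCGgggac
Peg3 promoter: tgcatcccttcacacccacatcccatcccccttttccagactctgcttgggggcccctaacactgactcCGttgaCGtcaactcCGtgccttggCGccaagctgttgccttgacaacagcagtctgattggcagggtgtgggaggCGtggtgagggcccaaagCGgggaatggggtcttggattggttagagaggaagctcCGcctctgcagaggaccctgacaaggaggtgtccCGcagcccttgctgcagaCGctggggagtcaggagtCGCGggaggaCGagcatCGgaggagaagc

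The wide region with the most H3K9me3 per kb, chr14:19415485-19419779, overlapped the start of the annotated gene Gm21738 but was 84.2% repeat-masked and held a tandem repeat. A pair of neighbouring 234-base copies at chr14:19418755-19418988 and chr14:19418989-19419222 (+ strand) were 91.0% identical, while over the whole region bases that far apart were the same in 53.1% of positions. Capitals in the later copy mark the bases that differ from the earlier one.
satellite-like repeat copy 1: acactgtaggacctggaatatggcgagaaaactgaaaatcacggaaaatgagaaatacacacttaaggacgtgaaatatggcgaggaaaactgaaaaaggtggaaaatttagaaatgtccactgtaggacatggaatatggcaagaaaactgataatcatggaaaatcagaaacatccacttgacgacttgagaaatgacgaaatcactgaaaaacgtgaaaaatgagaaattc
satellite-like repeat copy 2: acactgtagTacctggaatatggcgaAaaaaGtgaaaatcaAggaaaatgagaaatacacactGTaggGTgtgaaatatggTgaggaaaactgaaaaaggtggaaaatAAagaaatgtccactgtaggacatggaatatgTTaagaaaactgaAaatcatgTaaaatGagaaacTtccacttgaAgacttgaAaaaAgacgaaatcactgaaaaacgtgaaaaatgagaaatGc

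By gene context the wide regions were mostly promoters and gene bodies. A protein-coding gene start, with 1 kb on either side, was overlapped by 521 of 1175 (44.3%), against 6.34% of the other regions. A further 267 (22.7%) overlapped an exon of a protein-coding gene and 90 (7.66%) lay within an intron, against 10.8% and 35.3% of the other regions. Another annotated gene, such as a noncoding RNA or pseudogene, was overlapped by 95 (8.09%), and 202 (17.2%) were intergenic, against 7.29% and 40.2%. In all, 878 lay over or within a protein-coding gene, 627 held coding sequence and 77 covered 2 or more gene starts. The intergenic ones lay a median of 14.3 kb from the nearest protein-coding gene, and 78 of the 202 were within 10 kb. A wider interval has more room to meet a gene start, and the part of width in these shares was not tested.

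Wide regions were richer in CpG, with a median of 19.9 CpG per kb against 12.3 in the other regions, and slightly richer in GC, at 50.3% against 48.1%. CpG density was highest over gene starts, with a median of 35.5 per kb, and 11.9 to 14.9 per kb in the other contexts. The share of repeat-masked bases was 18.4% over all wide regions, 13.3% over those at gene starts and 31.0% over the intergenic ones, against 15.7% in the other regions.

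Motifs of stem cell factors were counted on both strands as plain letters. The octamer ATGCAAAT, bound by POU factors such as OCT4, occurred in 271 wide regions (23.1%, against 5.48% of the others), the Klf box CCACACCC in 598 (50.9% against 10.6%), and TCAAGGTCA, the extended half-site of ESRRB, in 246 (20.9% against 2.83%). A wider interval holds more letters. Per 100 kb of sequence the rates were 5.72 against 8.49 for the octamer, 14.5 against 16.6 for the Klf box and 4.61 against 4.03 for TCAAGGTCA. Matches from 3 wide regions at stem cell genes are shown with 20 bases before the motif, which is in capitals. The region chr4:55473479-55481768 lies 45.4 kb downstream of Klf4, which is on the - strand, chr12:86500252-86506911 lies within Esrrb and held 4 matches to TCAAGGTCA, and chr7:3208179-3215369 lies upstream of the miR-290 cluster. A match is a description of the letters, not of binding.
Klf4 downstream region, TCAAGGTCA: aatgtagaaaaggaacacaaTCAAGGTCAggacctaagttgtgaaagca
Esrrb region, TCAAGGTCA: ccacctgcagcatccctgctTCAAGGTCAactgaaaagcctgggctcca
Esrrb region, ATGCAAAT: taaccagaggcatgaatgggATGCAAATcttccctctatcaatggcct
miR-290 upstream region, ATGCAAAT: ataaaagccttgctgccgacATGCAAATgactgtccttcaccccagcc
These windows are chr4:55476405-55476453, chr12:86502039-86502087, chr12:86504829-86504876 and chr7:3213785-3213832, each read on the + strand.

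By their median, wide regions were more acetylated than the other regions. Per kb, their median H3K27ac was 13.3 to 16.9 CPM in the 8 samples of the repeated libraries, while the other regions had medians of 1.69 to 1.93. For H3K9me3 the order was turned, with medians of 1.56 to 3.05 CPM per kb in the wide regions of 10 repeated libraries against 3.56 to 4.96 in the others, and of 1.13 to 1.59 against 2.32 to 3.69 in the 6 libraries of separate lines. The ranges of wide and other regions did not overlap in any of these tables. The regions are named as peaks in the deposited tables, and how their borders were set is not given in the sources used here, so level and width are not independent of each other and these values are a description.

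The median H3K27ac of the wide regions was 14.1 ± 1.21 CPM per kb in B6, 15.4 ± 0.789 in B6-13D2, 16.0 ± 1.18 in D2 and 16.4 ± 0.541 in D2-13B6 (mean ± SD, n = 2 each). Median H3K9me3 in the repeated libraries was 1.72 ± 0.121 in B6 (n = 3), 1.63 ± 0.0930 in B6-13D2 (n = 2), 2.18 ± 0.364 in D2 (n = 2) and 2.58 ± 0.711 in D2-13B6 (n = 3). In the separate lines it was 1.39 ± 0.189 in B6 and 1.42 ± 0.249 in D2 (n = 3 each), a difference smaller than the spread between lines.

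Both marks changed with width over the whole list. In B6, median H3K27ac went from 1.59 CPM per kb in regions under 500 bp to 1.80 (500 bp to 1 kb), 3.46 (1 to 2 kb), 6.69 (2 to 4 kb), 13.9 (4 to 8 kb) and 17.9 (8 kb and wider). Median H3K9me3 in the same line went from 4.85 through 3.53, 2.73 and 2.05 to 1.64 and 1.72. D2 showed the same order for H3K27ac above 1 kb (3.51, 8.24, 16.1 and 17.7), and its H3K9me3 went from 5.27 under 500 bp to 2.14 at 4 to 8 kb and 2.11 above. CpG density did not follow width to the end, since it was highest at 2 to 4 kb (28.0 per kb) and lower at 4 to 8 kb (20.3) and above (16.9). The share over a gene start levelled off at 45.2%, 44.2% and 46.8% in the last 3 classes.

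**Figure D1:**
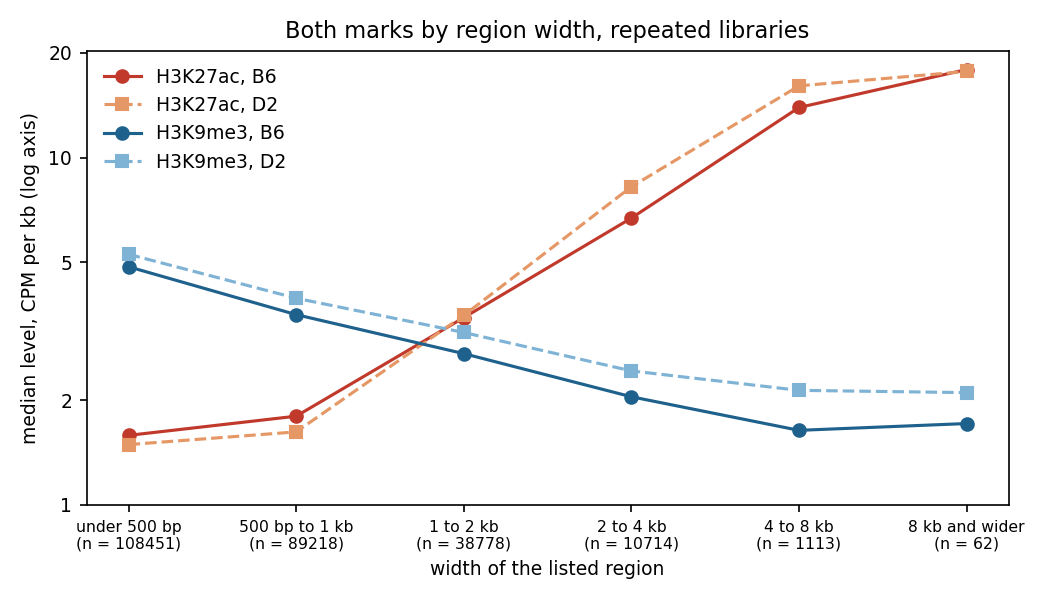
Median CPM per kb (log axis) of H3K27ac and H3K9me3 in 6 width classes of all listed regions, for the B6 and D2 repeated libraries. H3K27ac rises from under 2 to 17.9 CPM per kb in B6 while H3K9me3 falls from 4.85 to 1.72.

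Few wide regions were high in H3K9me3. In B6, 779 of 1175 had at least 10 CPM per kb of H3K27ac, 44 had at least 10 of H3K9me3, 31 of these 44 had both, and 383 had neither. Of the regions high in H3K9me3, 70.5% were thus high in H3K27ac, against 66.3% of all wide regions. H3K27ac exceeded H3K9me3 in 1052 and H3K9me3 exceeded H3K27ac in 123. Across the wide regions the log2 levels of the marks had a Pearson correlation of -0.20 in B6 and -0.23 in D2, a weak relation over regions that share the same libraries. In D2, 829 had at least 10 CPM per kb of H3K27ac and 23 of H3K9me3. Of the B6 sets, 718 for H3K27ac and 19 for H3K9me3 were also in the D2 sets. The 44 regions high in H3K9me3 lay mostly away from gene starts, with 17 intergenic, 10 over another annotated gene, 8 exonic, 4 intronic and 5 at a gene start. Their median repeat-masked share was 27.4% and their CpG density 13.4 per kb.

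**Figure D2:**
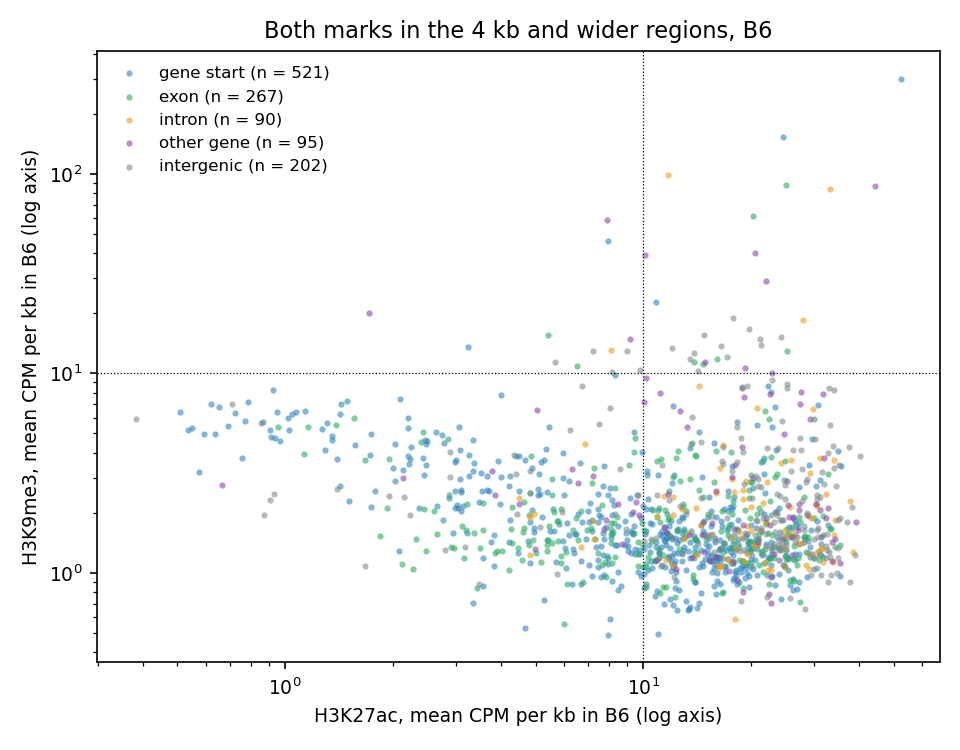
Mean H3K27ac (x axis) against mean H3K9me3 (y axis) per wide region in B6, both in CPM per kb on log axes, coloured by gene context, with dotted lines at 10 CPM per kb. Most of the 1175 points lie at low H3K9me3, and 31 lie above 10 on both axes.

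Sorted by B6 acetylation, the wide regions differed in kind. The 61 with less than 2 CPM per kb of H3K27ac had the highest CpG density (median 56.9 per kb), overlapped a gene start in 67.2% of cases and had a median H3K9me3 of 5.18 CPM per kb in the B6 repeated libraries. CpG density fell in each class up to the 88 regions with 30 or more CPM per kb, through 32.2, 26.7, 21.8 and 14.1 to 11.6. Their share over a gene start fell with it to 13.6%, and their masked share was 33.1%. H3K9me3 was lowest, at 1.47, in the 426 regions with 10 to 20 CPM per kb of H3K27ac and 1.80 in the most acetylated class. In the separate lines of B6 the same classes had H3K9me3 of 2.09 (least acetylated), 1.37, 1.13, 1.16, 1.61 and 2.28 (most acetylated), so in that experiment both ends were high.

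The genes at the 41 weakly acetylated gene starts were not tested for any class, and the names here were chosen after their values were seen. They included the homeobox genes Nkx2-1, Nkx3-2, En2, Tlx2, Tlx3, Otx1 and Cdx2, the POU factors Pou3f2 and Pou3f3, and the zinc finger factors Gata2, Gata6, Egr2, Egr3 and Prdm12. At Gata2, a regulator of blood stem cells, the B6 mean was 0.786 CPM per kb of H3K27ac and 7.18 of H3K9me3. At Prdm12, which specifies pain-sensing neurons, it was 0.924 and 8.21. At Pcdh8, which encodes a protocadherin, it was 0.507 and 6.37, and at Nkx3-2, a skeletal patterning gene, 0.535 and 5.19. In all 4, H3K9me3 was above the median of the wide regions. D2 gave 0.865 and 6.81 at Gata2 and 0.699 and 9.22 at Prdm12, the same order of the marks.

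The 5 widest regions were chr11:3122420-3138162 (15743 bp) over exons of Sfi1, chr15:25758480-25771145 (12666 bp) in Myo10, a myosin of filopodia, chr9:40797908-40810446 (12539 bp) at Hspa8, the constitutive heat shock cognate 70, chr5:134435466-134447756 (12291 bp) in the transcription factor gene Gtf2ird1, and chr17:45563255-45575300 (12046 bp) over the starts of Slc35b2 and Hsp90ab1, a cytosolic HSP90. In the Sfi1 region, H3K9me3 was 60.7, 62.4 and 60.4 in B6, 43.5 and 42.7 in B6-13D2, 57.2 and 59.04 in D2, and 64.3, 67.8 and 65.7 in D2-13B6 and H3K27ac 19.9 and 20.5 in B6, 10.5 and 12.1 in B6-13D2, 18.4 and 18.4 in D2, and 15.0 and 12.02 in D2-13B6. Both marks were thus high there in every sample, while in the Myo10 region mean B6 H3K27ac was 25.7 and H3K9me3 0.916, and at Hspa8 14.6 and 3.02.

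Multi-copy loci held the highest levels. The satellite-like region had H3K9me3 of 314, 301 and 286 in B6, 276 and 260.3 in B6-13D2, 235 and 216 in D2, and 259, 245 and 239.7 in D2-13B6, and H3K27ac of 52.1 and 52.9 in B6, 34.6 and 41.5 in B6-13D2, 47.2 and 50.1 in D2, and 37.8 and 37.4 in D2-13B6. It had the highest B6 mean of both marks. Next for H3K27ac came chr17:39842704-39849000, which overlaps the ribosomal RNA repeat annotations Gm26917 and Gm42418 (B6 mean 44.3), then chr3:103206244-103212005 near Bcas2 (40.3), chr9:108652698-108657345 near Arih2 (39.2) and the region downstream of Klf4 (38.9). For H3K9me3 the next were chr11:3190813-3198662 (153) and chr11:3159382-3164355 (88.4) at Sfi1, the ribosomal RNA region (87.1) and the widest region (61.2). How reads were placed among near-identical copies is not given in the sources used here, and copy number may differ between strains and lines, so the values at Sfi1, the satellite and the ribosomal RNA repeats are uncertain.

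Of the 35 genes of the pluripotency list, 20 had a wide region over the gene or within 5 kb of its start, 32 regions in all, including 5 at Esrrb, 3 at Trim28 and 2 each at Dppa5a, the miR-290 cluster, Tbx3, Tdgf1, Tet1 and Tfcp2l1. Their median H3K27ac was 18.99 CPM per kb in B6 and 23.2 in D2, and their H3K9me3 was 1.62 and 2.04. Upstream of the miR-290 cluster, H3K27ac was 35.02 and 41.5 in B6, 41.96 and 39.2 in B6-13D2, 44.96 and 40.9 in D2, and 45.2 and 51.7 in D2-13B6. At Esrrb, an orphan nuclear receptor of the naive network, it was 31.4 and 35.6 in B6, 38.3 and 36.4 in B6-13D2, 43.6 and 40.1 in D2, and 40.4 and 45.5 in D2-13B6. At Pou5f1, which encodes OCT4, it was 29.1 and 32.03 in B6, 37.2 and 33.8 in B6-13D2, 40.97 and 37.3 in D2, and 39.1 and 42.4 in D2-13B6. In these repeated libraries the B6 mean was lowest at each of the 3, with overlap of B6 with B6-13D2 and with D2 upstream of the miR-290 cluster and no overlap between B6 and D2 at Esrrb and Pou5f1.

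Of the 15 lineage genes, 3 had a wide region, namely Cdx2 (trophectoderm), Gata6 (primitive endoderm) and Pax6 (eye and neural), with a median H3K27ac of 1.04 and H3K9me3 of 6.29 CPM per kb in B6. Of 29 imprinted genes, Peg3 and Usp29 shared 1. Of 470 zinc finger genes, 25 had a wide region, with medians of 14.1 for H3K27ac and 1.57 for H3K9me3, near those of all wide regions. The zinc finger region with the most H3K9me3 in B6 was at Zfp961 (6.92 CPM per kb), then came Zfp503 (6.49) and Zfp703 (5.33). Of 70 replication-dependent histone genes, 19 lay in 7 wide regions, whose medians were 16.4 for H3K27ac and 0.917 for H3K9me3. Of 200 genes annotated as ribosomal or small nuclear RNA, none had one by this rule.

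The strains were compared first, D2 minus B6, with edgeR's quasi-likelihood test over all regions of each table and an adjusted p (Benjamini-Hochberg) under 0.05. For H3K27ac in the repeated libraries, 632 of 1175 wide regions were called, 479 higher in D2 and 153 lower, where the calls over all regions were 14.7% higher and 13.4% lower. The median log2 difference was 0.23 in the wide regions and -0.05 over all regions. With scaling by library totals, which moved the median of all regions to -0.20, the split was 478 higher and 277 lower. At least a 2-fold difference was called in 130 (11.1%), against 16.8% of all regions. Wide regions had more counts than others, and the part of this in the share called was not tested. In the separate lines, 592 of 1162 were called, 387 higher and 205 lower, against 24.3% and 25.0% of all regions. A 2-fold difference was called in 43 (3.70%), against 12.4%. That table has its own list of 96988 regions with wider intervals (median 13460 bp where they met a wide region), and each wide region took the value of the interval it overlapped most, so 1162 wide regions used 1058 intervals. Fibroblast marker H3K27ac was also higher in D2 (34.2 against 12.8 CPM). The sums for stem cell (1093 against 893), primitive endoderm (9.38 against 7.48) and mesoderm and neural markers (21.3 against 13.9) were higher in D2 too. The part of these differences in the counts was not tested.

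The 2 experiments, with different antibodies for H3K27ac, called 394 wide regions in both (66.6% of the calls in separate lines and 62.7% of those in repeated libraries). Of these, 374 had the same direction and 20 the opposite one. The region lists of the H3K27ac tables differ, so no such share over all regions is given, and 1 line of each strain is in both experiments.

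Acetylation was nearly lost in D2 at some wide regions. Here and below, regions named for the largest differences of a contrast had to have groups without overlap. That lack of overlap therefore follows from the choice. At chr6:136998631-137003368, 29.8 kb from Pde6h, which encodes a cone photoreceptor phosphodiesterase subunit, H3K27ac was 22.8 and 26.8 in B6, 24.1 and 22.5 in B6-13D2, 1.02 and 1.06 in D2, and 1.85 and 2.15 in D2-13B6. B6 and B6-13D2 were high and the 2 genotypes with D2 background were low, without overlap. The log2 difference between strains was -4.57 ± 0.16 (SE, adjusted p = 1.8e-26). The separate lines had 7.75, 6.86 and 7.597 in B6 and 1.103, 1.19 and 1.24 in D2, a difference of -2.65 ± 0.09 (SE, adjusted p = 2.5e-32) per kb of the wider interval.

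Similar patterns were seen within Myo1f, a class I myosin gene of white blood cells (chr17:33597226-33602682), where H3K27ac was 21.1 and 24.3 in B6, 27.1 and 25.1 in B6-13D2, 0.5797 and 0.920 in D2, and 0.658 and 0.689 in D2-13B6, and beside Shisa7, a synaptic receptor auxiliary gene (chr7:4820054-4824482), where it was 30.3 and 35.8 in B6, 29.8 and 27.2 in B6-13D2, 1.23 and 1.23 in D2, and 1.69 and 1.21 in D2-13B6. Both lines with D2 background were below both lines with B6 background, and the strain differences were -5.002 ± 0.18 (SE, adjusted p = 1.1e-26) and -4.74 ± 0.17 (SE, adjusted p = 1.1e-26). The opposite was seen at chr7:34408669-34413583, 15.4 kb from the RNA granule gene Lsm14a, with H3K27ac of 0.971 and 0.895 in B6, 0.734 and 0.903 in B6-13D2, 24.1 and 21.2 in D2, and 23.3 and 25.4 in D2-13B6. The 4 samples with B6 background were under 1 CPM per kb and the 4 with D2 background above 20, a difference of 4.58 ± 0.16 (SE, adjusted p = 1.6e-26). At chr1:165245033-165249312 near Tiprl the difference was 4.08 ± 0.17 (SE, adjusted p = 4.5e-24), and at chr1:157068953-157074797 near Tex35 3.84 ± 0.16 (SE, adjusted p = 1.1e-23). Because mm10 is the C57BL/6J assembly and how strain variants were handled in mapping is not given in the sources used here, low values in D2 may include reads that did not map, which was not tested.

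Of the pluripotency list's 32 wide regions, 11 rose in H3K27ac from B6 to D2 in the repeated libraries and 1 fell, where 40.8% of all wide regions were called higher and 13.02% lower. In the separate lines 4 were higher and 4 lower, where 33.3% and 17.6% of all wide regions were. At Pou5f1 the difference was 0.36 ± 0.12 (SE, adjusted p = 0.022), and the call ended without B6 replicate 3 (adjusted p = 0.054), without the count filter (0.073), without B6-13D2 replicate 2 (0.12) or without D2 replicate 2 (0.056). The difference between separate lines was -0.04 ± 0.06 (SE, adjusted p = 0.61). At Esrrb the difference was 0.33 ± 0.12 (SE, adjusted p = 0.04) in the repeated libraries and -0.03 ± 0.06 (SE, adjusted p = 0.7) in the separate lines. The former call ended with DESeq2 size factors (0.061) and without the count filter (0.11). It also ended without B6-13D2 replicate 2 (0.18), B6 replicate 3 (0.061), D2-13B6 replicate 1 (0.065) or D2 replicate 2 (0.092). Of the zinc finger list's 25, 13 were higher and 4 lower in the repeated libraries, and 3 higher and 5 lower in the separate lines. Of the histone list's 7, 4 were higher and 0 lower in each experiment. At the Hist1h4h start the call in the separate lines ended with a mean count of 20 (adjusted p = 0.072). It also ended without B6 replicate 2 (0.16) or 3 (0.07) or without D2 replicate 2 (0.078) or 3 (0.069). The call there in the repeated libraries ended without B6-13D2 replicate 2 (0.064). In the lineage list 1 of 3 was higher, and in the imprinted list 1 of 1.

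For H3K9me3, 845 of the 1175 wide regions passed the count filter in the separate lines, and 254 of them were called, 118 higher in D2 and 136 lower, against 17.3% and 17.4% of all tested regions. The split was 135 higher and 118 lower with library totals, 93 and 89 without the count filter and 144 and 107 without D2 replicate 3, so it did not settle on a direction. Differences of 2-fold or more were called in 164 (19.4%), against 25.0%. In the repeated libraries, 191 of 1175 were called, 114 higher and 77 lower, against 4.42% and 6.99% of all regions, and 130 (11.1%, against 10.3%) by 2-fold or more. The median log2 difference was 0.31 in the wide regions, 0.02 over all regions. Without D2 replicate 2 this median was 0.10 and the count fell to 88 (35 higher, 53 lower), and the split was 46 higher and 58 lower with DESeq2 and 55 and 73 without the count filter, so which direction held more calls rested on these choices. Both experiments called 111 wide regions, 43.7% of the calls in separate lines among regions tested in both and 67.3% of those in repeated libraries. All but 1 of the 111 had the same direction. Over all regions tested in both, the shares were 39.6% and 71.9%, with the same direction in 99.5%, and 1 line of each strain is in both experiments. The exception, chr1:24611449-24616261, holds copies of mitochondrial genes such as Gm10925. Its H3K9me3 was 6.22, 8.60 and 8.51 in B6 and 2.205, 3.11 and 2.41 in D2 in the separate lines, and 3.76, 2.61 and 2.83 in B6, 3.52 and 2.91 in B6-13D2, 32.2 and 28.4 in D2, and 85.2, 20.005 and 29.9 in D2-13B6 in the repeated libraries, so D2 was lower in one experiment and higher in the other.

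Intergenic wide regions were among those with the largest H3K9me3 losses in D2. At chr3:9100301-9104574, 95.6 kb from Tpd52, H3K9me3 in the separate lines was 23.3, 17.5 and 19.9 in B6 and 0.946, 1.88 and 1.84 in D2, and in the repeated libraries 13.4, 12.98 and 12.3 in B6, 9.02 and 8.84 in B6-13D2, 1.57 and 1.72 in D2, and 1.16, 4.22 and 3.26 in D2-13B6. All B6 and B6-13D2 libraries were above all libraries with D2 background, and the strain differences were -3.66 ± 0.22 (SE, adjusted p = 9.4e-17) in the lines and -2.95 ± 0.28 (SE, adjusted p = 3.5e-17) in the repeats. H3K27ac went the other way there, with 7.01 and 7.49 in B6, 12.2 and 11.5 in B6-13D2, 16.8 and 14.6 in D2, and 24.5 and 20.4 in D2-13B6 and a difference of 1.13 ± 0.13 (SE, adjusted p = 4e-09).

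A second such region was chr4:53337605-53341793, 98.6 kb from the choline transporter gene Slc44a1. H3K9me3 was 27.2, 19.3 and 20.3 in B6 and 2.77, 1.65 and 1.66 in D2 in the separate lines, and 14.5, 11.1 and 12.4 in B6, 8.75 and 6.12 in B6-13D2, 1.75 and 1.63 in D2, and 2.08, 2.58 and 2.86 in D2-13B6 in the repeated libraries. B6 lay above D2 in every library, with differences of -3.47 ± 0.21 (SE, adjusted p = 2.3e-16) and -2.90 ± 0.28 (SE, adjusted p = 4.2e-17). H3K27ac was higher in D2 by 1.24 ± 0.13 (SE, adjusted p = 1.3e-10). At the start of Zfp961, a zinc finger gene (chr8:71950293-71955528), H3K9me3 was 20.1, 12.6 and 17.4 in B6 and 1.74, 1.46 and 1.68 in D2 in the separate lines, and 7.29, 7.396 and 6.07 in B6, 5.48 and 5.701 in B6-13D2, 1.29 and 1.71 in D2, and 0.831, 1.77 and 3.21 in D2-13B6 in the repeated ones. The naming rule required that no library of D2 reach the lowest of B6 in the separate lines, and none did in the repeated ones. The differences were -3.36 ± 0.21 (SE, adjusted p = 4.1e-16) and -2.19 ± 0.29 (SE, adjusted p = 9e-10). H3K27ac in the repeated libraries was 28.6 and 32.8 in B6, 33.03 and 30.7 in B6-13D2, 25.6 and 23.1 in D2, and 26.1 and 28.7 in D2-13B6, here also lower in D2 than in B6 (-0.33 ± 0.12 (SE, adjusted p = 0.039)), a call that ended under 7 alternatives (adjusted p from 0.053 with DESeq2 to 0.49 without B6 replicate 3).

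At the Peg3 and Usp29 start, chr7:6726759-6731328, which is imprinted and methylated on the maternal allele, H3K9me3 in the separate lines was 11.1, 9.35 and 7.44 in B6 and 2.43, 2.35 and 1.82 in D2. In the repeated libraries it was 11.1, 10.6 and 7.61 in B6, 7.303 and 7.96 in B6-13D2, 2.41 and 2.76 in D2, and 2.99, 2.37 and 3.99 in D2-13B6. H3K27ac in these was 7.92 and 8.71 in B6, 9.66 and 9.87 in B6-13D2, 17.6 and 15.2 in D2, and 16.4 and 18.3 in D2-13B6. H3K9me3 was lower and H3K27ac higher in both lines with D2 background, without overlap with B6. The strain differences were -2.07 ± 0.22 (SE, adjusted p = 4.1e-10) and -1.91 ± 0.26 (SE, adjusted p = 8.6e-10) for H3K9me3, and 0.99 ± 0.13 (SE, adjusted p = 3.8e-08) for H3K27ac. B6-13D2 was on the B6 side for both marks, with differences from B6 of -0.36 ± 0.20 (SE, adjusted p = 0.64) and 0.24 ± 0.13 (SE, adjusted p = 0.25) that did not pass the test.

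Upstream of the miR-290 cluster, H3K9me3 in the separate lines was 7.06, 3.899 and 5.96 in B6 and 0.914, 0.959 and 0.902 in D2, and in the repeated libraries 2.59, 1.82 and 2.03 in B6, 3.203 and 3.83 in B6-13D2, 1.19 and 1.095 in D2, and 0.778, 1.58 and 2.804 in D2-13B6. D2 was lower in both sets of libraries, with differences of -2.60 ± 0.24 (SE, adjusted p = 2.7e-11) in the lines and -0.91 ± 0.33 (SE, adjusted p = 0.059) in the repeats, where the difference did not pass the test. H3K27ac differed by less than the spread between samples (0.17 ± 0.12 (SE, adjusted p = 0.34)).

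Higher H3K9me3 in D2 was found at chr17:6475864-6482122, an interval over the noncoding gene Gm26848. It was 1.25, 0.533 and 1.01 in B6 and 4.36, 5.14 and 4.29 in D2 in the separate lines, and 2.17, 2.26 and 1.61 in B6, 2.103 and 1.57 in B6-13D2, 7.33 and 8.22 in D2, and 6.16, 10.9 and 9.43 in D2-13B6 in the repeated libraries. H3K27ac was 8.81 and 9.89 in B6, 10.8 and 10.01 in B6-13D2, 33.7 and 31.4 in D2, and 33.3 and 35.8 in D2-13B6. Both marks were higher in every sample with D2 background than in any with B6 background, with differences of 1.95 ± 0.24 (SE, adjusted p = 8.9e-12) for H3K9me3 and 1.81 ± 0.13 (SE, adjusted p = 8.5e-16) for H3K27ac. Reads of both marks were thus higher together here. In the separate lines 157 wide regions were called for both marks (63.8% of the H3K9me3 calls and 35.7% of the H3K27ac calls among regions tested for both, with no share over all regions because the lists differ), and 117 of them went in opposite directions, 48 with more H3K9me3 and less H3K27ac in D2 and 69 the reverse. In the repeated libraries 114 were called for both (59.7% and 18.0%), 60 in opposite directions and 54 in the same one. Over all regions of the shared list tested for both marks, 5006 were called for both (55.1% and 17.8%), 41.7% of them in opposite directions. Of the 58 wide regions with more H3K9me3 in D2 there, 40 had more H3K27ac and 18 less.

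The congenic lines give the comparisons with the chromosome 13 segment. On the B6 background (B6-13D2 minus B6), H3K9me3 was called in 28 wide regions, 14 higher and 14 lower, where 1.23% of all regions were called higher and 0.451% lower. On the D2 background (D2 minus D2-13B6, so that both contrasts read as D2 segment minus B6 segment), it was called in 39, 8 higher and 31 lower, against 1.74% and 0.428% of all regions. The median log2 difference of the wide regions was -0.09 and -0.22, and -0.03 over all regions in both. The median on the D2 background was -0.39 without D2-13B6 replicate 1, -0.10 without D2-13B6 replicate 3 and -0.06 without D2 replicate 1, and that on the B6 background -0.14 without B6-13D2 replicate 1 and -0.03 without replicate 2. The count on the D2 background rested on single libraries. It was 106 (13 higher, 93 lower) without D2-13B6 replicate 1, 24 (7 and 17) without D2-13B6 replicate 2 and 11 (6 and 5) without D2 replicate 1. On the B6 background it was 18 without B6-13D2 replicate 1 and 17 without replicate 2.

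For H3K27ac, 286 wide regions were called on the B6 background, 225 higher with the D2 segment and 61 lower, against 7.60% and 5.40% of all regions. On the D2 background 134 were called, 43 higher and 91 lower, against 1.43% and 5.24%. Scaling by library totals gave 254 higher and 235 lower on the B6 background and 142 higher and 156 lower on the D2 background, so the excess of higher calls on the B6 background rested on the scaling. On the D2 background the split was also nearer to even with a mean count of 20 (133 and 136), with every library as its own sample (171 and 216) and with the replicate block (183 and 228). Fibroblast marker H3K27ac was higher in B6-13D2 than in B6 (23.2 against 12.8 CPM) and in D2 than in D2-13B6 (34.2 against 26.0), and its part in these counts was not tested. Scaling by library totals moved the median of all regions on the B6 background from -0.06 to -0.19, and that of the wide regions from 0.11 to -0.01. Relative to all regions the wide ones were higher under both scalings. Without B6-13D2 replicate 2 the count on the B6 background was 169 and without B6 replicate 3 it was 179. On the D2 background it was 57 without D2 replicate 2 and 83 without B6-13D2 replicate 2.

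H3K9me3 was called on both in 8 wide regions, 28.6% of those on the B6 background and 20.5% of those on the D2 background, and 7 had the same direction. Over all regions the calls on both backgrounds were 594, 40.6% and 31.5% of those on each, and 586 had the same direction. H3K27ac was called on both in 56 (19.6% and 41.8%), of which 26 were higher and 19 lower with the D2 segment in both lines and 11 differed in direction. Over all regions it was 20.5% and 39.8%, with the same direction in 84.6%. The contrasts compare different libraries, but both came from 1 fit per mark, with common scaling and a pooled spread between libraries. Calls on 1 background therefore also depended on libraries of the other, and the calls on both were not independent. Each contrast rests on 1 congenic line.

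**Figure D3:**
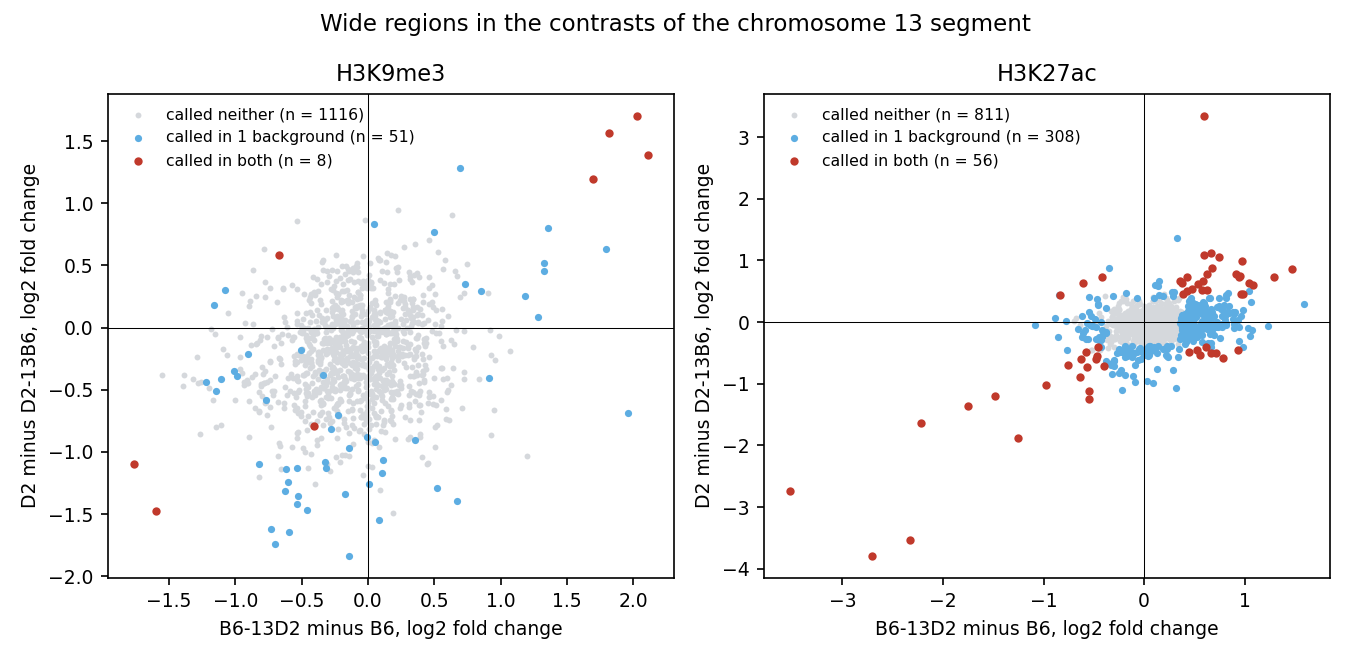
Log2 difference of each wide region on the B6 background (B6-13D2 minus B6, x axis) and on the D2 background (D2 minus D2-13B6, y axis), in 1 panel for H3K9me3 and 1 for H3K27ac, coloured by whether it was called on neither, 1 or both backgrounds. Of the points called on both, 7 of 8 for H3K9me3 and 45 of 56 for H3K27ac lie in the quadrants where the signs are the same.

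H3K9me3 was higher with the D2 segment in 4 wide regions on other chromosomes. The start of Gja1, chr10:56375547-56379699, encodes the gap junction protein connexin 43. H3K9me3 there was 1.33, 1.13 and 2.67 in B6, 8.15 and 5.95 in B6-13D2, 6.92 and 4.93 in D2, and 1.35, 1.74 and 2.196 in D2-13B6. All 4 libraries with the D2 segment lay above all 6 with the B6 segment. The differences were 2.03 ± 0.28 (SE, adjusted p = 3.9e-09) on the B6 background and 1.71 ± 0.30 (SE, adjusted p = 1.3e-05) on the D2 background. The separate lines had 1.41, 1.13 and 1.67 in B6 and 15.8, 16.1 and 16.95 in D2, again without overlap (3.52 ± 0.23 (SE, adjusted p = 1.6e-15)). H3K27ac at Gja1 was 11.2 and 12.4 in B6, 10.4 and 9.12 in B6-13D2, 18.4 and 15.9 in D2, and 21.8 and 26.9 in D2-13B6. It was higher on the D2 background, and it did not pass the test on the B6 background (-0.26 ± 0.13 (SE, adjusted p = 0.2)). On the D2 background it was lower with the D2 segment (-0.51 ± 0.13 (SE, adjusted p = 0.0069)), a call that ended without D2 replicate 2 (adjusted p = 0.3). The interaction did not pass the test (adjusted p = 0.52).

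At the start of Dut, chr2:125244440-125249007, which encodes the dUTPase that keeps uracil out of DNA, H3K9me3 was 2.31, 1.95 and 1.66 in B6, 7.10 and 6.84 in B6-13D2, 6.16 and 6.32 in D2, and 2.31, 1.13 and 2.84 in D2-13B6. The libraries with the D2 segment lay between 6.16 and 7.10 and those with the B6 segment between 1.13 and 2.84. The differences were 1.81 ± 0.26 (SE, adjusted p = 2.1e-08) and 1.57 ± 0.27 (SE, adjusted p = 1.2e-05). The separate lines had 4.99, 4.24 and 5.38 in B6 and 13.4, 13.8 and 17.4 in D2 (1.61 ± 0.18 (SE, adjusted p = 3.6e-09)). H3K27ac was 11.2 and 12.1 in B6, 10.5 and 9.54 in B6-13D2, 12.8 and 11.4 in D2, and 13.3 and 16.7 in D2-13B6, and neither congenic difference passed the test (-0.21 ± 0.13 (SE, adjusted p = 0.31) and -0.31 ± 0.13 (SE, adjusted p = 0.17)). The CpG-rich Dut start and the CpG-poorer Gja1 start thus showed the same order of genotypes.

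At chr16:64872799-64877666, 13.3 kb from the gene of the CGG repeat binding protein CGGBP1, H3K9me3 was 2.79, 2.79 and 2.796 in B6, 12.7 and 11.5 in B6-13D2, 6.03 and 4.75 in D2, and 1.53, 2.33 and 2.17 in D2-13B6. Values were higher in the line with the D2 segment on each background, with differences of 2.11 ± 0.22 (SE, adjusted p = 3.5e-15) and 1.39 ± 0.27 (SE, adjusted p = 0.00017). The latter call ended without D2 replicate 1 (adjusted p = 0.052). H3K27ac was 29.7 and 33.9 in B6, 21.0 and 19.9 in B6-13D2, 27.97 and 24.8 in D2, and 36.3 and 43.8 in D2-13B6. It was lower with the D2 segment on each background, without overlap, with differences of -0.63 ± 0.13 (SE, adjusted p = 0.00033) and -0.60 ± 0.12 (SE, adjusted p = 0.0007). Those calls ended without B6-13D2 replicate 2 (0.11) or B6 replicate 3 (0.055) on the B6 background and without D2 replicate 2 (0.14) on the D2 background.

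At chr18:82774217-82778724, 81.3 kb from Zfp236, H3K9me3 was 2.56, 3.02 and 2.57 in B6, 9.49 and 8.17 in B6-13D2, 7.46 and 7.81 in D2, and 2.48, 3.77 and 3.62 in D2-13B6. The lowest value with the D2 segment was 7.46 and the highest with the B6 segment 3.77, and the differences were 1.70 ± 0.24 (SE, adjusted p = 5.3e-09) and 1.19 ± 0.24 (SE, adjusted p = 0.00033).

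Lower H3K9me3 with the D2 segment was found in 3 wide regions, all on chromosome 11. In Pigl, which encodes a deacetylase of GPI anchor synthesis (chr11:62506163-62514980), H3K9me3 was 14.9, 12.6 and 11.4 in B6, 3.78 and 3.86 in B6-13D2, 3.95 and 4.65 in D2, and 10.4, 9.11 and 8.33 in D2-13B6. Libraries with the D2 segment stayed under 5 and those with the B6 segment above 8. The differences were -1.76 ± 0.18 (SE, adjusted p = 5.5e-16) and -1.10 ± 0.18 (SE, adjusted p = 3e-06), and -1.78 ± 0.16 (SE, adjusted p = 1.3e-11) between strains in the separate lines. H3K27ac there was 23.4 and 26.8 in B6, 35.2 and 33.3 in B6-13D2, 37.8 and 35.7 in D2, and 40.9 and 45.05 in D2-13B6, highest in D2-13B6 and lowest in B6.

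Over the starts of Cd68, a lysosomal membrane protein of macrophages, and Mpdu1, a gene of glycan synthesis (chr11:69661153-69668593), H3K9me3 was 4.93, 5.63 and 4.61 in B6, 1.58 and 1.76 in B6-13D2, 1.56 and 3.25 in D2, and 6.77, 6.85 and 6.903 in D2-13B6. The highest value with the D2 segment, 3.25, was under the lowest with the B6 segment, 4.61. The differences were -1.59 ± 0.25 (SE, adjusted p = 2.7e-07) and -1.48 ± 0.23 (SE, adjusted p = 5.4e-07). At the Sfi1 start, chr11:3190813-3198662, a multi-copy locus, the differences were smaller, at -0.41 ± 0.08 (SE, adjusted p = 0.00046) and -0.79 ± 0.09 (SE, adjusted p = 1.5e-13), and the former call ended without B6-13D2 replicate 2 (0.069) and without the count filter (0.35).

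Some regions were called for H3K9me3 on a single background. Near Cnn3 (chr3:121416570-121420724) it was 0.484, 0.882 and 0.607 in B6, 2.83 and 2.36 in B6-13D2, 0.736 and 0.885 in D2, and 0.897, 1.24 and 1.73 in D2-13B6, so B6-13D2 stood above the other 3 lines (1.96 ± 0.40 (SE, adjusted p = 0.00037)), a call that ended with DESeq2 (adjusted p = 0.071). The test of the difference between backgrounds gave 2.65 ± 0.63 (SE, adjusted p = 0.02), a call that ended without the count filter (0.076) and when any 1 of 6 libraries was left out (adjusted p from 0.057 without B6 replicate 3 to 0.2 without D2 replicate 1, the others being B6 replicate 1, B6-13D2 replicate 1, D2 replicate 2 and D2-13B6 replicate 3). At Socs3, the feedback inhibitor of LIF signalling (chr11:117961954-117966079), it was 1.46, 1.52 and 1.47 in B6, 1.03 and 0.791 in B6-13D2, 0.8896 and 1.53 in D2, and 2.71, 3.99 and 5.47 in D2-13B6. D2-13B6 was highest there, and D2 minus D2-13B6 was -1.74 ± 0.36 (SE, adjusted p = 0.00043), a call that ended without D2 replicate 1 (0.14). Near Dppa3, whose product STELLA protects maternal methylation (chr6:122660316-122665140), it was 1.15, 1.63 and 0.9403 in B6, 1.07 and 1.16 in B6-13D2, 0.634 and 0.9796 in D2, and 1.42, 3.41 and 3.78 in D2-13B6. D2-13B6 was again highest (-1.84 ± 0.40 (SE, adjusted p = 0.001)), with an interaction that did not pass the test (adjusted p = 0.33), and the call ended without D2 replicate 1 (0.14) and with DESeq2 (0.057).

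**Figure D4:**
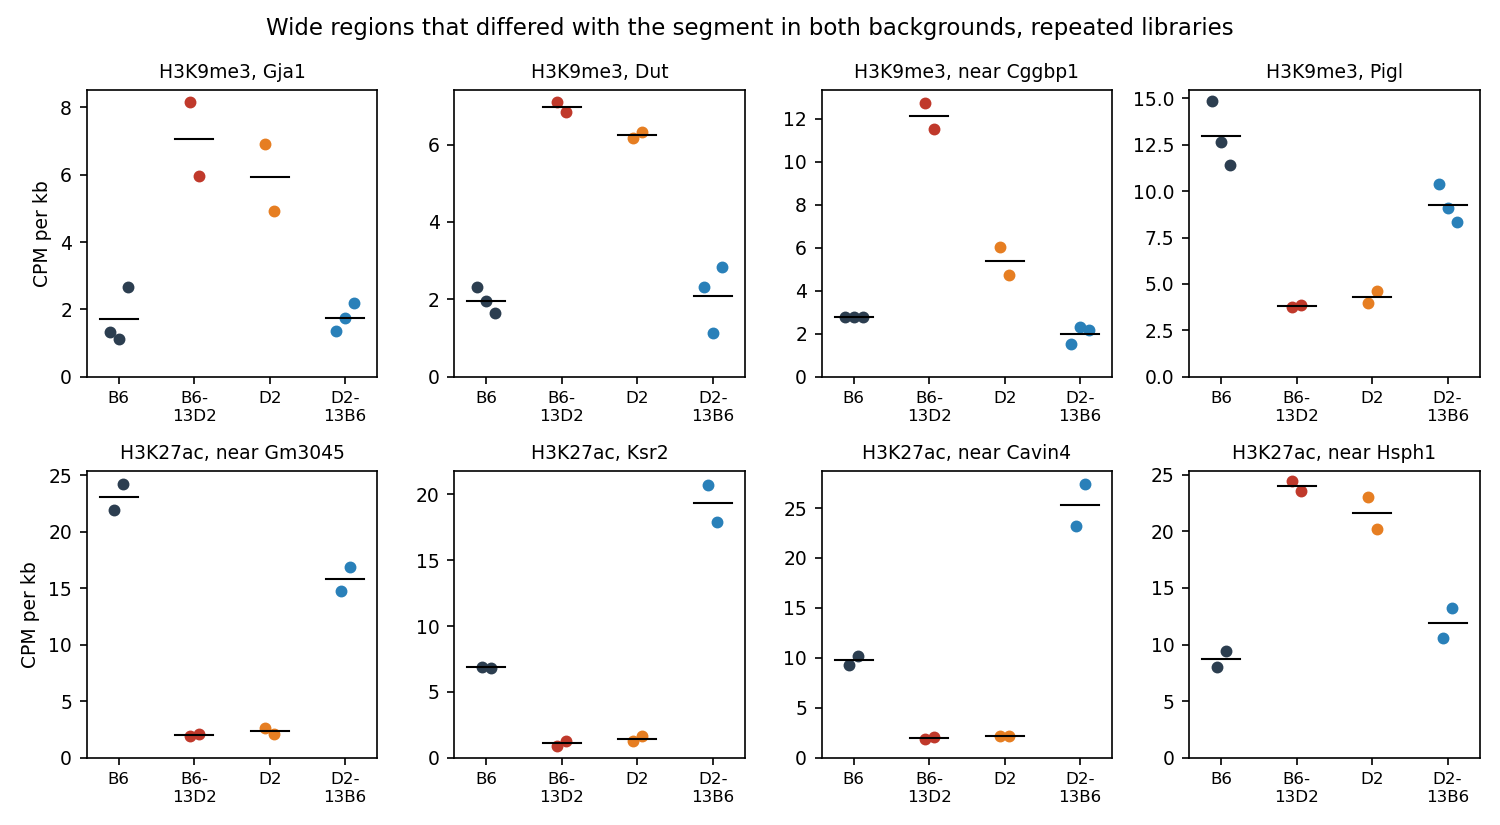
CPM per kb in each sample (points) with the mean per genotype (line) at 4 wide regions for H3K9me3 (Gja1, Dut, near Cggbp1, Pigl) and 4 for H3K27ac (near Gm3045, Ksr2, near Cavin4, near Hsph1). In each panel both genotypes with the D2 segment lie on the same side of their background's partner, as at Gja1, where they are at 4.93 to 8.15 and the others at 1.13 to 2.67.

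The largest decreases in H3K27ac with the D2 segment, on each background, were in 3 wide regions. At chr13:56418288-56423400, 3.19 kb from Gm3045 and itself on chromosome 13, it was 21.9 and 24.2 in B6, 1.93 and 2.11 in B6-13D2, 2.59 and 2.09 in D2, and 14.8 and 16.9 in D2-13B6. Lines with the D2 segment were under 3 and lines with the B6 segment above 14. The differences were -3.52 ± 0.15 (SE, adjusted p = 6.8e-24) and -2.73 ± 0.15 (SE, adjusted p = 1e-19).

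Within Ksr2, a scaffold gene of the Ras-MAPK cascade on chromosome 5 (chr5:117438003-117442308), H3K27ac was 6.92 and 6.84 in B6, 0.912 and 1.28 in B6-13D2, 1.24 and 1.63 in D2, and 20.7 and 17.9 in D2-13B6. Both lines with the D2 segment were under 2, B6 was near 7 and D2-13B6 highest. The differences were -2.70 ± 0.17 (SE, adjusted p = 7.5e-17) and -3.79 ± 0.16 (SE, adjusted p = 3.7e-23). H3K9me3 in the same interval was 2.80, 5.83 and 4.68 in B6, 7.31 and 7.04 in B6-13D2, 8.24 and 8.54 in D2, and 2.31, 3.35 and 4.46 in D2-13B6, higher with the D2 segment by 1.28 ± 0.25 (SE, adjusted p = 0.00011) on the D2 background and by 0.70 ± 0.23 (SE, adjusted p = 0.14) on the B6 background, where it did not pass the test. The interaction did not pass it either (adjusted p = 0.76).

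At chr4:48679650-48684836, 6.15 kb from the caveolar coat gene Cavin4 on chromosome 4, H3K27ac was 9.32 and 10.2 in B6, 1.83 and 2.08 in B6-13D2, 2.17 and 2.22 in D2, and 23.2 and 27.4 in D2-13B6. The order of the lines was the same as at Ksr2, and the differences were -2.33 ± 0.15 (SE, adjusted p = 4.5e-17) and -3.54 ± 0.15 (SE, adjusted p = 5.5e-24). H3K9me3 was 11.2, 10.4 and 9.52 in B6, 9.79 and 11.6 in B6-13D2, 8.14 and 9.01 in D2, and 5.39, 4.86 and 4.26 in D2-13B6, with D2-13B6 lowest.

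Smaller decreases with the D2 segment on both backgrounds were found within Dnah2 (-2.21 and -1.64 on the log2 scale), an axonemal dynein gene, at the start of Tmem200b (-1.75 and -1.36), in Dmtn (-1.25 and -1.88), which encodes the actin-bundling dematin, and in Sipa1l3 (-1.48 and -1.20). Each passed the test on both backgrounds. Between strains, D2 minus B6, the differences in the repeated libraries were -2.27, -1.97 and -0.99 at the last 3, all called lower, while at Dnah2 it was -0.06 ± 0.13 (SE, adjusted p = 0.8) in the repeated libraries and 0.53 ± 0.09 (SE, adjusted p = 9.2e-07) in the separate lines. At the start of Xkr8, a phospholipid scramblase (chr4:132731287-132739947), H3K27ac was 19.4 and 22.4 in B6, 10.7 and 10.5 in B6-13D2, 12.2 and 10.99 in D2, and 22.4 and 24.9 in D2-13B6, lower with the D2 segment on each background, with differences of -0.97 ± 0.12 (SE, adjusted p = 1e-07) and -1.03 ± 0.12 (SE, adjusted p = 2.1e-08). H3K9me3 there was 0.986, 1.75 and 1.69 in B6, 3.53 and 3.88 in B6-13D2, 4.17 and 5.396 in D2, and 2.58, 3.98 and 3.82 in D2-13B6. It was higher in B6-13D2 than in B6 by 1.33 ± 0.24 (SE, adjusted p = 3.7e-05), and its difference on the D2 background was 0.46 ± 0.21 (SE, adjusted p = 0.38), with an interaction at an adjusted p of 0.41.

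H3K27ac was higher with the D2 segment on both backgrounds in other wide regions. At chr5:149646919-149650941, 10.5 kb from Hsph1, a heat shock protein gene of the HSP110 family, H3K27ac was 8.01 and 9.43 in B6, 24.5 and 23.6 in B6-13D2, 23.02 and 20.2 in D2, and 10.5 and 13.3 in D2-13B6. D2 and B6-13D2 were above 20 and the other lines under 14, with differences of 1.47 ± 0.13 (SE, adjusted p = 1.3e-11) and 0.85 ± 0.13 (SE, adjusted p = 4.2e-06). At chr6:149361373-149366194, 25.7 kb from the retroelement silencing factor gene Resf1, it was 1.72 and 1.71 in B6, 3.19 and 3.63 in B6-13D2, 4.84 and 3.91 in D2, and 2.21 and 2.23 in D2-13B6, with differences of 0.98 ± 0.16 (SE, adjusted p = 1.8e-05) and 0.996 ± 0.15 (SE, adjusted p = 5.1e-06). Again the lines with the D2 segment did not overlap those without. In Cdh4, which encodes R-cadherin, the differences were 1.29 and 0.73. In all, 13 wide regions were called for both marks on the B6 background, 46.4% of the H3K9me3 and 4.55% of the H3K27ac calls, and the marks went in opposite directions in 10. Over all regions tested for both it was 857 (60.9% and 6.14%), 51.5% of them opposite. On the D2 background it was 15 wide regions (38.5% and 11.2%), of which 11 were opposite, and 1259 regions in all (68.7% and 14.003%), of which 73.2% were opposite. The differences between these shares were not tested.

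Most H3K9me3 calls on the D2 background lay on chromosome 11. Of the 39 wide regions called, 24 lay on it and all 24 were lower in D2 than in D2-13B6. Over all tested regions, 2.40% were called lower on chromosome 11 and 0.263% on the other chromosomes. The 109 wide regions of that chromosome had a median log2 difference of -0.72, against -0.18 for the 1066 on other chromosomes, of which 15 were called (8 higher, 7 lower). All 6703 tested regions of chromosome 11 had a median of -0.51. H3K27ac followed, with a median of -0.27 in the 109 wide regions, -0.29 in all regions of the chromosome and -0.02 in the other wide regions, and with 31 calls, 4 higher and 27 lower, where 0.255% of all tested regions of the chromosome were called higher and 11.6% lower. Chromosome 11 took 7.86% to 8.38% of the H3K9me3 counts in D2-13B6 libraries and 5.46% to 6.18% in the other 3 lines. Of the H3K27ac counts it took 9.15% to 9.47% in D2-13B6 and 7.14% to 7.64% in the others. Among the counts of wide regions alone, the chromosome's H3K9me3 share was 18.5% to 19.4% in D2-13B6, 17.9% to 18.9% in B6, 15.9% in B6-13D2 and 14.4% to 14.8% in D2, so D2-13B6 overlapped B6, and its H3K27ac share was 10.7% to 10.999% against 8.74% to 9.48%. No input library shows the copy number of chromosome 11 in D2-13B6, so for the 24 calls and the medians a difference in the marks and a difference in copy number cannot be told apart. The part of this higher share of reads in the calls at Pigl, Cd68, Sfi1, Dnah2 and Socs3 on the D2 background was not tested. The H3K9me3 differences were -1.76 at Pigl and -1.59 at Cd68 on the B6 background, and -1.10 and -1.48 on the D2 background. At Socs3 the interaction was 1.04 ± 0.60 (SE, adjusted p = 0.76).

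**Figure D5:**
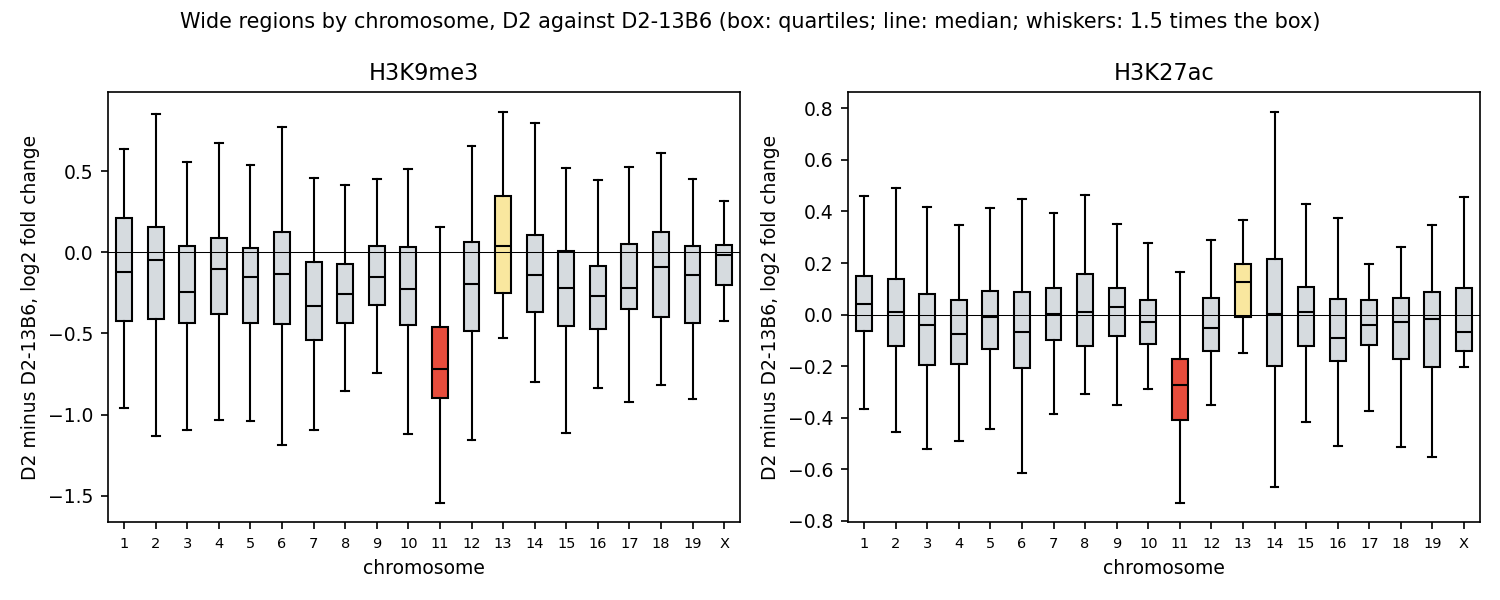
Box plots of the log2 difference between D2 and D2-13B6 in wide regions by chromosome (1 to 19 and X), for H3K9me3 and H3K27ac, with chromosome 11 in red and chromosome 13 in yellow (regions beyond the whiskers are not drawn). The median on chromosome 11 is -0.72 for H3K9me3 and -0.27 for H3K27ac, while the other 19 chromosomes have medians of -0.33 to 0.04 and -0.09 to 0.12.

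Chromosome 13 itself, which carries the exchanged segment, held 30 wide regions. For H3K9me3, 0 were called on either background by edgeR or by DESeq2, and 2 had an unadjusted p under 0.05 on each, while 9.58% (B6 background) and 10.1% (D2 background) of all 4164 tested regions of the chromosome were called. For H3K27ac, 12 were called on the B6 background, 10 higher and 2 lower, with a median log2 difference of 0.31, and 2 on the D2 background, 1 in each direction, with a median of 0.12. Over all 9394 tested regions of the chromosome, 11.8% were called higher and 5.64% lower on the B6 background, with a median of 0.02, and 6.53% and 4.58% on the D2 background, with a median of 0.20.

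Whether the difference with the segment was the same on both backgrounds was tested by the interaction. It is the difference on the B6 background minus that on the D2 background, each between 2 individual lines. For H3K9me3 it was called in 5 wide regions (2 positive, 3 negative), where 0.364% of all regions were called, and 107 had an unadjusted p under 0.05. Without D2-13B6 replicate 1 it was 15 (12 and 3), without D2 replicate 1 it was 2 (0 and 2) and without B6-13D2 replicate 1 it was 3 (1 and 2). For H3K27ac it was called in 149 (129 positive, 20 negative), where 5.30% of all regions were called. With library totals the H3K27ac split was 166 and 148, and with a mean count of 20 it was 189 and 101. Without D2 replicate 2 its count was 43, without B6-13D2 replicate 2 it was 86 and without B6 replicate 3 it was 95. In Pkd1l2, a polycystin family gene (chr8:117014695-117019956), H3K27ac was 12.4 and 13.4 in B6, 19.8 and 18.99 in B6-13D2, 11.8 and 10.3 in D2, and 1.02 and 1.13 in D2-13B6. D2-13B6 alone was low, D2 was above it by 3.35 ± 0.16 (SE, adjusted p = 9.8e-22) and B6-13D2 above B6 by 0.59 ± 0.12 (SE, adjusted p = 0.00049). The interaction was -2.75 ± 0.20 (SE, adjusted p = 3.5e-12).

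Around the width limit itself the levels varied. The 3 narrowest wide regions, of 4001, 4003 and 4004 bp, near Gm15319 and in Abcc5 and Capn11, had B6 means of 20.4, 28.3 and 9.45 CPM per kb for H3K27ac and of 40.1, 1.52 and 4.72 for H3K9me3. The 3 widest regions left out, of 3998, 3998 and 3999 bp, at Map2k7, Tmem18 and in Tns3, had 1.92, 5.20 and 4.30 for H3K27ac and 2.14, 2.51 and 1.398 for H3K9me3.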

How the data were processed

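Raw counts per region, as deposited by the authors, were used for 34 libraries in 12 groups. Per the submitters' processing notes the build was mm10, and Trimmomatic 0.39, HISAT2 2.2.1, MACS 1.4.2, bedtools 2.9.2 and edgeR were used, with roles not stated. In the tables, 2 columns matched no sample and were not used. Wide regions were taken from the region names. Counts of all regions were fitted with edgeR 4.0.16 in R 4.3.3 (TMM scaling, filterByExpr with a minimum count of 10 and total of 15, quasi-likelihood test, two-sided, Benjamini-Hochberg adjustment), 1 fit per table, and the rows of the wide regions were read out. Levels are CPM per kb with TMM-scaled library sizes. Library pairs with a chi-square per degree of freedom under 1 over regions of at least 40 counts were summed. Gene context is from GENCODE M21, sequences are from RefSeq and GRCm38.

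Regions were named by rule: the 5 widest, the 5 highest per mark in B6, per contrast the 3 largest and 3 smallest log2 differences among called regions whose groups did not overlap, those called for H3K9me3 in the same direction on both backgrounds, the regions nearest the width limit, and up to 4 per gene list. Resf1, Sipa1l3, Dmtn, Tmem200b, Dnah2, Xkr8 on the segment contrasts, the miR-290 cluster, the mitochondrial copies on chromosome 1 and the weakly acetylated gene starts were chosen after their values were seen. So were Nuggc, Sp5, Gm47283 and, besides its place by rule, Pkd1l2. The wide regions and the lists were chosen with earlier results of these data known. Alternatives were scaling by DESeq2 size factors or library totals, DESeq2 1.42.0, no filter, a mean count of 20 or more, a replicate block, every library as its own sample, a stricter overlap (50% of the region), and leaving out each replicate. The fits were tested on simulated data.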

Additional observations from a re-analysis of the deposited data

Results flagged for a closer look

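The difference with the chromosome 13 segment was not the same on both backgrounds in the wide regions listed here, by edgeR's test of the interaction (B6 background minus D2 background, log2 scale, Benjamini-Hochberg adjusted). For H3K9me3 near Cnn3 the interaction was 2.645 (SE 0.63, adjusted p = 0.02), with differences of 1.96 on the B6 background and -0.68 on the D2 background. Near Slc1a4, a neutral amino acid transporter gene on chromosome 11, it was 1.629 (SE 0.34, adjusted p = 0.0038), from 0.09 and -1.54. H3K9me3 there was 12.9, 10.96 and 10.2 in B6, 11.6 and 12.5 in B6-13D2, 1.36 and 2.69 in D2, and 6.65, 5.28 and 6.31 in D2-13B6. D2-13B6 lay between D2 and the lines with B6 background. The call near Slc1a4 ended without D2 replicate 1 (adjusted p = 0.38).

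In Nuggc, on chromosome 14, the H3K9me3 interaction was -1.341 (SE 0.29, adjusted p = 0.0047), from -1.16 and 0.18. This call ended without either B6-13D2 replicate or without D2 replicate 1 (adjusted p = 0.052, 0.053 and 0.078). On chromosome Y it was -1.382 (SE 0.16, adjusted p = 4e-10) in Gm47283, chrY:90798082-90806188, and -1.25 (SE 0.19, adjusted p = 2.9e-06) near Gm21860, chrY:90725134-90735224, both in repeat-rich sequence with 58.4% and 65.3% of bases masked.

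For H3K27ac, Pkd1l2 had an interaction of -2.754 (SE 0.20, adjusted p = 3.5e-12). The start of Tlx2, a homeobox gene of low acetylation, had -1.291 (SE 0.33, adjusted p = 0.013), from -0.84 and 0.45. The widest region, over Sfi1, had -1.287 (SE 0.18, adjusted p = 4.9e-06), from -0.84 and 0.45. The start of Sp5, a target gene of Wnt signalling, had 1.387 (SE 0.20, adjusted p = 1e-05), from 0.93 and -0.45. Near Kcnrg, at chr14:61734208-61739350, it was 1.393 (SE 0.18, adjusted p = 1.2e-06), from 0.32 and -1.07. Near Ntn1, at chr11:68384402-68388605, it was 1.399 (SE 0.22, adjusted p = 4.9e-05), from 0.99 and -0.41. The regions near Slc1a4 and Ntn1 and over Sfi1 lie on chromosome 11, of which D2-13B6 held a larger share of reads, and the part of this in their interactions was not tested.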

How the results depend on the processing

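Several counts over the wide regions moved by more than 1.5 times. For H3K9me3, DESeq2 called 17 (9 higher, 8 lower) on the B6 background, 19 (7 and 12) on the D2 background and 104 (46 and 58) between strains in the repeated libraries, and without the count filter the first 2 were 18 (11 and 7) and 19 (7 and 12). Between strains the split was 55 higher and 73 lower without the filter and 161 and 64 when regions needed a mean count of 20. For H3K27ac on the B6 background, on the D2 background and for the interaction, library totals gave 489, 298 and 314 calls, the mean count limit of 20 gave 466, 269 and 290, and every library as its own sample 637, 387 and 509. Without the filter, the latter 2 were 89 and 85. The cause of these moves was not tested.

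Leaving out 1 library at a time gave, for H3K9me3, 227 to 251 calls in the separate lines, 17 to 36 on the B6 background, 11 to 106 on the D2 background, 88 to 236 between strains and 2 to 15 for the interaction. For H3K27ac it gave 496 to 591 in the separate lines, 169 to 385, 57 to 177, 476 to 708 and 43 to 221. Medians per kb ranged over 1.64 to 1.75 (B6) and 1.92 to 2.44 (D2) for H3K9me3 and 13.3 to 14.2 and 16.0 to 16.9 for H3K27ac. Library numbers did not pair the samples (correlations of deviations -0.0669 to 0.163, over 0.1 in 1 of 13 pairs for H3K9me3 and 0 of 18 for H3K27ac in the repeated libraries, and in 0 of 3 for each mark in the separate lines). With the replicate block, H3K27ac calls were 660 (B6 background), 411 (D2 background) and 525 (interaction), with every library counted. The other counts stayed within 1.5 times of their own.

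Of 4512 recomputations of 277 results at named regions, 4239 kept their side of the threshold and direction, 273 lost the call and 0 turned. 196 results were called throughout. Depth limits H3K9me3, at a median of 9 to 33 counts per wide region.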
